A study of Mus musculus with 2 samples.

Results

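The expression of 10 mouse genes of iron import, export and storage was described in the intestine of 2 groups of mice: Slc11a2, Cybrd1, Tfrc, Slc40a1, Heph, Fth1, Ftl1, Epas1, Aco1 and Ireb2. They were selected by symbol and by their function, with the FPKM of both groups already known, so their differences are given as a description. All 10 were found among the 18919 genes of the series table, and all 10 belonged to the 13253 genes counted as measured, with 1 FPKM or more in at least 1 library. FPKM are fragments per kilobase of transcript scaled to the size of the library, a level that can be compared between genes. Both groups were C57BL/6 mice aged 2 months that carried the APCmin allele, a mutation of the tumour suppressor gene Apc with which mice develop intestinal adenomas. The control group had APCmin alone. The KO group was APCmin; Setd2IEC-/-, in which the histone H3 lysine 36 methyltransferase gene Setd2 was deleted in intestinal epithelial cells, while other cells of the gut kept it. The Cre line that deleted it is not given in the sources used here. Each group is a single library for which the RNA of 3 littermates was mixed, so no difference below has a replicate check and no p-value was computed. The comparison asks how the APCmin intestine differs when its epithelium lacks Setd2.

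Iron enters the body through the enterocytes of the proximal small intestine. The reductase encoded by Cybrd1 turns dietary ferric into ferrous iron at the brush border, the transporter encoded by Slc11a2 (DMT1) carries it into the cell, and it is either stored in ferritin or released to the blood through ferroportin (Slc40a1) with the help of the ferroxidase hephaestin (Heph). The level of these mRNAs is set in part by HIF-2 alpha, a transcription factor stabilised at low iron or oxygen and encoded by Epas1, which activates Slc11a2, Cybrd1 and Slc40a1 in enterocytes. The iron regulatory proteins encoded by Aco1 (IRP1) and Ireb2 (IRP2) bind hairpins called iron-responsive elements (IREs) in mRNAs when iron is scarce. Bound in a 5′ untranslated region (UTR) they block translation, and bound in a 3′ UTR they protect the mRNA from decay.

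The IREs are shown because they divide the genes into those that iron regulatory proteins control by translation and those that they control by mRNA decay, and because they separate both forms of Slc11a2. They were searched for in GENCODE M21 transcripts (mm10) as a C, any 5 bases and a loop of CAGTG plus any base, followed by 5 bases able to pair with the 5 before the loop, G-T pairs and 1 unpaired base on the 3′ side being allowed, on the transcript strand. This pattern lay in a UTR of 6 of the 10 genes, against 1.75% of 20597 protein-coding genes with a matched RefSeq transcript. These 6 are mRNAs already known to carry IREs, so the contrast follows from how the genes were chosen. Capitals mark the C and the loop. The 5′ UTR elements were those of Fth1 (chr19:9982732-9982760, plus strand), Ftl1 (chr7:45459779-45459807, minus strand), Slc40a1 (chr1:45925465-45925493, minus strand) and Epas1 (chr17:86753768-86753797, plus strand) in exon 1 of a transcript that the files list, the Fth1 element also lying in exon 2 of the other Fth1 transcript listed. The 3′ UTR elements were 1 in the last exon, exon 16, of a Slc11a2 transcript (chr15:100395152-100395181, minus strand) and 4 in exon 19 of Tfrc, of which the first lies at chr16:32631219-32631247 on the plus strand and the last at chr16:32631710-32631738.
Fth1, 5′ UTR: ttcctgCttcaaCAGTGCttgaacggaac
Ftl1, 5′ UTR: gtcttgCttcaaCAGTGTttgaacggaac
Slc40a1, 5′ UTR: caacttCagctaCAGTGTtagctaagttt
Epas1, 5′ UTR: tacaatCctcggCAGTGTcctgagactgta
Slc11a2, 3′ UTR: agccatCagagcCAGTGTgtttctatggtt
Tfrc, 3′ UTR, first: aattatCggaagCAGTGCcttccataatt
Tfrc, 3′ UTR, last: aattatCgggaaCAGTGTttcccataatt

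Before the iron genes, the labels were checked on Setd2 itself, which was at 6.87 FPKM in the control library and 3.47 in the KO library. Its 513 and 254 expected counts gave a ratio of CPM (counts scaled to the library total) of 0.504, with a 95% counting interval of 0.432 to 0.587. Apc, mutated in both groups, was at 10.51 FPKM in the control and 10.73 in the KO library. The control and KO libraries held 8809678 and 8646358 expected counts. Intervals here are exact Clopper-Pearson intervals of the KO library's share of a gene's rounded counts, and cover the error of counting alone. PCR copies are not independent molecules, and variation among mice or pools is not in them. All 28 markers of absorptive enterocytes were measured, with a summed level of 46833 FPKM in the control and 33598 in the KO library. In bulk tissue, fewer cells of a type and less RNA per cell cannot be told apart. Transcripts of other tissues were higher in the KO library: 19 of 22 measured markers of exocrine pancreas and 10 of 12 of stomach were at least 2-fold higher. The pancreas list summed to 2361 FPKM in the control and 4490 in the KO library, of which Zg16 made up 2152 and 1477. Without Zg16 the sums were 209.3 and 3014 FPKM. The stomach list summed to 52.87 and 293.2 FPKM. Their part in the results below was not tested.

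Of the 10 iron genes, 3 were higher in the KO library by 2-fold or more and 0 were lower by that much. The 3 were Slc11a2, Cybrd1 and Slc40a1, the importer, the reductase and the exporter of the absorbing enterocyte. This count uses the log2 ratio of KO over control after 1 FPKM was added to both, past 1 or -1. By the same rule 2.78% of all measured genes were higher and 1.28% lower, and among the 1985 measured genes with 1000 or more expected counts in a library, as all 10 iron genes have, 1.36% were higher. Of the 10 log2 ratios 8 were above 0, as were 62.5% of those of all measured genes. The median of the 10 was 0.29 and that of all measured genes 0.08. Scaling by the median ratio of counts moved the median of all genes from 0.08 to -0.0015 and that of the 10 from 0.29 to 0.19. Together the 10 genes held 0.654% of the counts of the control library and 1.01% of those of the KO library, mostly through ferritin.

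**Figure D1:**
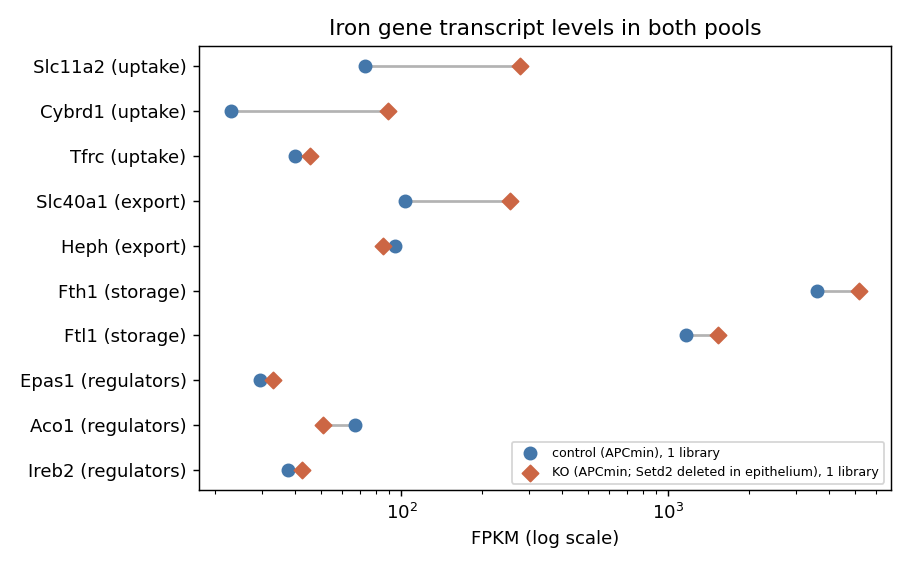
Level of each iron gene in FPKM (log axis) in the control library (circles) and the KO library (diamonds), 1 library per group, with no error bars because there are no replicates. Slc11a2 (73.17 and 278.2), Cybrd1 (22.91 and 89.22) and Slc40a1 (102.8 and 255.45) have the widest gaps, and Fth1 and Ftl1 the highest levels.

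Among the genes of uptake, Slc11a2 (chromosome 15, 100387898 to 100425072) was at 73.17 FPKM in the control library and 278.2 in the KO library. Its level ranked 1126th of all measured genes in the control library and 308th in the KO library. From 2666.7 and 10186 expected counts, the CPM ratio was 3.89 (3.73 to 4.06). Cybrd1 (chromosome 2, 71117923 to 71142926) was at 22.91 FPKM in the control and 89.22 in the KO library, from 1063.5 and 4064.8 counts. Its ratio was 3.89 (3.64 to 4.17), and the quotient of both genes' ratios was 0.9997 (0.923 to 1.08, an approximate interval from the 4 counts). The reductase and the transporter it supplies were therefore higher by a factor that their counts do not separate, at levels 3.19-fold apart in the control library and 3.12-fold apart in the KO library. Only 0.822% of measured genes had a higher log2 ratio than Slc11a2 (1.91) and 0.792% a higher one than Cybrd1 (1.92).

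Tfrc encodes the transferrin receptor, which takes up iron from the blood rather than from the gut lumen and serves dividing cells. It was at 40.03 FPKM in the control library and 45.39 in the KO library, with 1755 and 1953 counts and a ratio of 1.13 (1.06 to 1.21). After scaling by the median ratio the ratio was 1.06 and its interval, 0.991 to 1.13, included 1. Slc11a2 and Tfrc are the genes of the 10 with an IRE in the 3′ UTR, printed above, and their CPM ratios differed 3.43-fold (3.18 to 3.71).

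The 2 RefSeq forms of Slc11a2 that the files list end in different last exons. The IRE was found in the longer form (NM_001146161, 4415 nt in GENCODE, 16 exons) and not in the shorter (NM_008732, 3025 nt, 17 exons). The files give a single length per gene, which in RSEM output is the mean over its forms weighted by their abundance. For Slc11a2 it was 4095.8 nt in the control library and 4192.2 nt in the KO library, 96.4 nt longer. Of 557 genes with several listed forms and 1000 or more counts in both libraries, 25 (4.49%), Slc11a2 included, had a difference at least this large in either direction. With the GENCODE lengths, the IRE form would make up 77.04% of Slc11a2 molecules in the control library and 83.97% in the KO library. That corresponds to 56.4 and 233.6 FPKM of the IRE form, a ratio of 4.14, and 16.8 and 44.6 FPKM of the other form, a ratio of 2.65. Both forms were thus higher in the KO library, the IRE form by the larger factor. The lengths the authors used for each form are not known: for the 7 iron genes with 1 listed form, the files' length differed from GENCODE's by between -164 and 487 nt. When either form's length was changed by these amounts, a choice made after the values were seen, the IRE form's share was 57.05 to 87.3% in the control library and 62.2 to 95.2% in the KO library. The share was higher in the KO library by 5.13 to 10.7 percentage points. Only the size of this difference could vary here, since its sign follows from the longer mean length in the KO library. The ratio of the IRE form was then 4.10 to 4.43 and that of the other form 1.44 to 3.35.

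**Figure D2:**
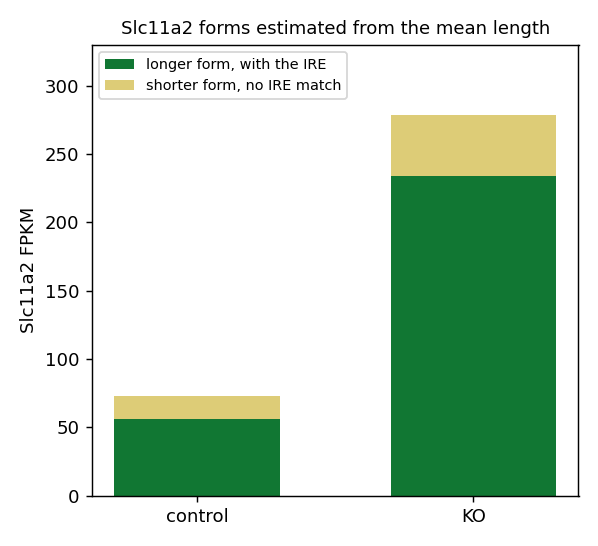
Slc11a2 level in FPKM in the control and KO libraries, split into the longer form with the IRE (dark) and the shorter form without a match (light) by the mean length in the files and the GENCODE lengths of both forms. The longer form is at 56.4 FPKM in the control and 233.6 in the KO library, and the shorter at 16.8 and 44.6. The split is an estimate and has no error bars.

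Of the genes of export, Slc40a1 (chromosome 1, 45908068 to 45926523), the only known cellular iron exporter, was at 102.8 FPKM in the control library and 255.45 in the KO library. Its 3087 and 7525 counts gave a ratio of 2.48 (2.38 to 2.59), less than that of Slc11a2 by a factor of 1.57 (1.48 to 1.66). As a result the importer was at 0.712 times the level of the exporter in the control library and 1.09 times in the KO library. Heph (chromosome X, 96455359 to 96574485), which oxidises the iron that leaves through ferroportin, was lower, at 94.25 and 85.19 FPKM, with a ratio of 0.902 (0.862 to 0.945). Slc40a1 and Heph were at similar levels in the control library, 1.09 to 1, and at 3.00 to 1 in the KO library. The exporter and its ferroxidase thus did not differ together between the libraries.

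Ferroportin is also made by macrophages that recycle iron from red cells. Of 13 measured macrophage markers 0 were at least 2-fold higher or lower, and 8 were above 0, with a median log2 ratio of 0.11. Their summed level was 319.02 FPKM in the control and 288.2 in the KO library, or 142.87 and 159.7 without Lyz2, lysozyme (107.7 and 76.97), and Mertk. Among them Cd68 was at 4.37 and 6.29 FPKM, C1qc, a complement subunit, at 28.74 and 35.26, and Mertk, a receptor for dead cells, at 68.42 and 51.45. Spic, the factor that defines red pulp macrophages, had 2 counts in the control and 0 in the KO library. The part of macrophages in the Slc40a1 value was not tested.

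Ferritin, the shell of heavy and light chains that stores iron, had the highest transcript levels of the group. Fth1, the heavy chain with ferroxidase activity (chromosome 19, 9980598 to 9985098), was at 3591 FPKM in the control library and 5179.6 in the KO library, rank 8 and rank 5 among all measured genes. Its ratio was 1.44 (1.42 to 1.46), from 29213 and 41344 counts. Ftl1, the light chain (chromosome 7, 45457944 to 45459884), had 1164 FPKM in the control and 1532 in the KO library, and its CPM ratio was 1.32 (1.28 to 1.35). Neither reached 2-fold, and 9.52% and 15.7% of measured genes had a higher log2 ratio than Fth1 (0.53) and Ftl1 (0.40). The heavy chain stood at 3.08 times the level of the light chain in the control library and 3.38 times in the KO library, a shift of 1.10-fold (1.06 to 1.13). The 2 together took 0.444% of counts in the control and 0.626% in the KO library. Both mRNAs carry the 5′ UTR IRE printed above, and their transcript levels leave out how much of them was translated. Ferritin genes have many near-identical processed copies in the genome. Reads that fit several genes are divided by RSEM, so the values of Fth1 and Ftl1 are less certain than their counting intervals.

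**Figure D3:**
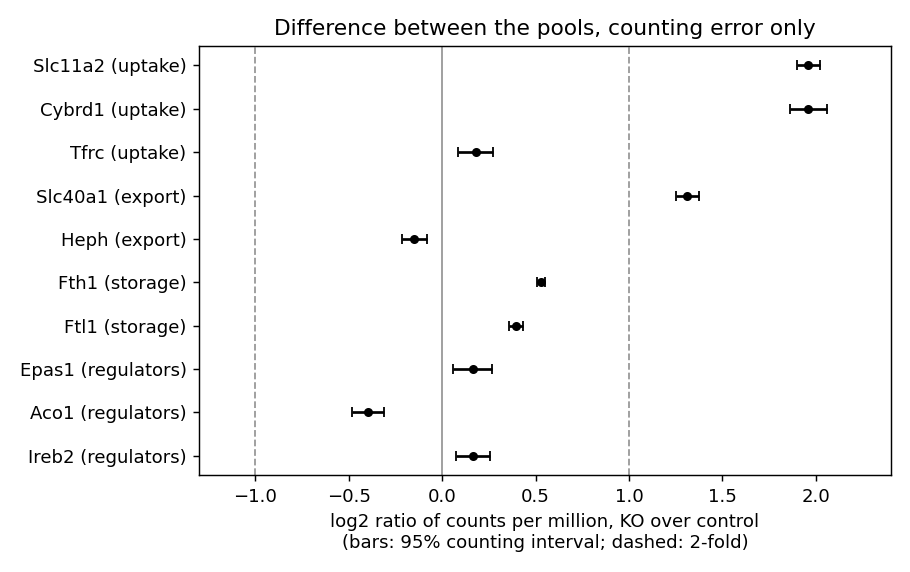
log2 ratio of CPM, KO over control, for each iron gene (points) with its 95% counting interval (bars), which holds no variation between mice. Dashed lines mark 2-fold. Slc11a2, Cybrd1 and Slc40a1 lie beyond 2-fold, Fth1 and Ftl1 between, and Heph and Aco1 below 0.

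The regulators differed less than Slc11a2, Cybrd1 and Slc40a1, though Aco1 differed more than Tfrc and Heph. Epas1 (chromosome 17, 86753700 to 86833410) was at 29.51 FPKM in the control library and 33.03 in the KO library, a ratio of 1.12 (1.04 to 1.20). Ireb2, at 37.67 and 42.27 FPKM, also had a ratio of 1.12 (1.05 to 1.19). After scaling by the median ratio the intervals of Epas1 (0.971 to 1.12) and Ireb2 (0.984 to 1.11) included 1. Aco1, whose protein is a cytosolic aconitase when it holds an iron-sulfur cluster and an RNA-binding protein when it does not, was lower, at 67.07 FPKM in the control library and 50.9 in the KO library. Its ratio was 0.759 (0.715 to 0.805), and 93.1% of measured genes had a higher log2 ratio. The level of Ireb2 relative to Aco1 was 0.562 in the control and 0.830 in the KO library. The activity of HIF-2 alpha and of both iron regulatory proteins depends on protein turnover or on the iron-sulfur cluster, which these data do not measure. Epas1 is also an endothelial gene. Of 14 measured endothelial markers 13 were above 0, against 62.5% of all measured genes. Their list had a summed level of 51.7 FPKM in the control and 79.47 in the KO library. Sox17, an endoderm and endothelial transcription factor, was at 0.38 and 11.95 FPKM, and without it the sums were 51.32 and 67.52. Cdh5, VE-cadherin, was at 2.89 and 6.87 FPKM, and Pecam1 at 7.19 and 8.94. Their part in the Epas1 value was not tested.

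Counting intervals lay above 1 for 8 of the 10 genes and below 1 for Heph and Aco1. By the same rule, among the 1985 genes with 1000 or more counts in a library, 38.5% had an interval above 1 and 31.5% below 1. The 3 genes past 2-fold were singled out by that cut, which 1.36% of these 1985 genes reached in the same direction. The other 7 lie where counting intervals alone separate most well-covered genes. Of the 1776 measured genes at 50 FPKM or more in a library, a level chosen after the values were seen, 32 outside the 10 had a log2 ratio at least as high as that of Slc40a1 (1.30).

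**Figure D4:**
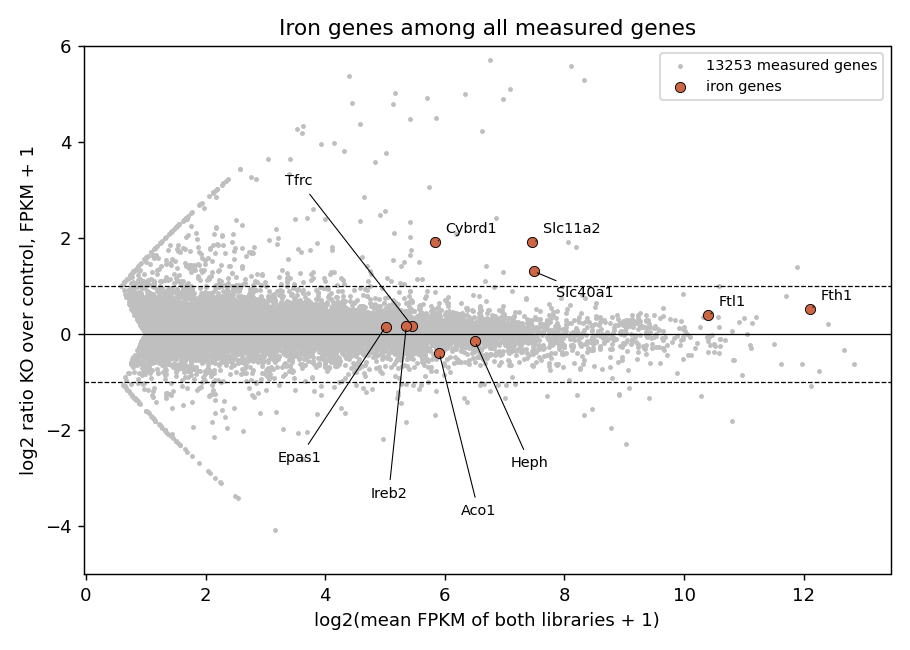
log2 ratio of KO over control (after adding 1 FPKM to both) against log2 of the mean FPKM plus 1, for the 13253 measured genes (grey) and the 10 iron genes (filled and named). Dashed lines mark 2-fold. Slc11a2, Cybrd1 and Slc40a1 lie above the upper line and the other 7 within both lines.

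A core of the hypoxia response element, ACGTG, was searched for on both strands in RefSeq promoters (GRCm38.p6, the release of mm10; 250 bases before to 50 after the start), which the table holds for 6 of the 10 genes. No promoter was listed for Slc11a2, Slc40a1, Heph and Epas1, so theirs could not be searched. The motif was in 19.6% of all 32851 promoters listed. Among the 6 genes it was in the promoter of Tfrc alone, a share close to that of all promoters. Tfrc is a described target of hypoxia-inducible factors, but whether they bind this motif was not tested. In the Tfrc promoter the motif lies at chr16:32608894-32608898, plus strand, across the first of 2 listed starts. The 50 bases around it (chr16:32608872-32608921) are shown with the motif in capitals.
Tfrc promoter: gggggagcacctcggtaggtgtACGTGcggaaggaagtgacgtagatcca
The windows of Cybrd1, Fth1, Ftl1, Aco1 and Ireb2 had no ACGTG, which says only that these letters are not in these windows.

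For 3 other mRNAs known to carry IREs the levels in both libraries were within 2-fold of each other. App, the amyloid precursor, was at 110.2 FPKM in the control and 113.8 in the KO library. Cdc14a, a phosphatase, was at 6.17 and 9.49 FPKM, and Cdc42bpa, a kinase, at 2.55 and 2.59.

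Other genes activated by hypoxia-inducible factors were compared with the 3 enterocyte genes. Of 33 measured targets outside iron transport, 3 were at least 2-fold higher, 0 lower, 22 above 0 and 11 below, with a median log2 ratio of 0.17. Of all measured genes 2.78% were at least 2-fold higher and 62.5% above 0, with a median of 0.08. The highest log2 ratios were those of P4ha2, a collagen prolyl hydroxylase (1.24 FPKM in the control and 5.41 in the KO library), Hk2, a hexokinase (2.21 and 6.23), and the glucose transporter Slc2a1 (7.55 and 18.17). The lowest were those of Nt5e, an ectonucleotidase (45.73 and 24.5), Cited2 (20 and 13.66) and the chemokine receptor Cxcr4 (4.56 and 2.99). Gapdh, the most abundant, was at 2083 and 2432 FPKM. Slc11a2, Cybrd1 and Slc40a1, singled out because they were past 2-fold, had ratios above most of the general hypoxia targets. The same holds against all measured genes, of which 1.71% had a higher log2 ratio than Slc40a1. Of a list of 7 genes described as HIF-2 targets in duodenal enterocytes, 4 were at least 2-fold higher, against 2.78% of all measured genes. That list holds 4 of the 10 iron genes, Slc11a2, Cybrd1, Slc40a1 and Tfrc, which were chosen with their values known. The first 3 of these were past 2-fold. Outside the 10, the gene past 2-fold was Hmox1, heme oxygenase. It was at 1.12 FPKM in the control and 6.68 in the KO library (16 and 94 counts, ratio 5.99, 3.50 to 10.9). Ankrd37 of that list was at 10.95 and 16.93 FPKM, and the copper exporter Atp7a at 5.63 and 6.37.

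The machinery that turns over hypoxia-inducible factors was close between the libraries. Of 11 measured subunits and regulators, Epas1 included, 0 were past 2-fold and the median was 0.04, or -0.06 after scaling by the median ratio. Vhl, which targets the alpha subunits for degradation, was at 6.37 FPKM in the control and 9.48 in the KO library (ratio 1.49, 1.21 to 1.84). Arnt2, a partner subunit, was at 1.33 and 3.18 and had a CPM ratio past 2-fold (2.39, 1.80 to 3.20). The oxygen sensor Egln3 was at 39.41 and 33.24, and Hif1an, which hydroxylates the transactivation domain, at 12.8 and 11.16.

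Among other iron genes, of 11 measured genes of uptake, reduction and iron carriage, 2 were at least 2-fold higher and 10 above 0, with a median of 0.36. Over all measured genes the shares were 2.78% and 62.5%, and the median was 0.08. The metalloreductase Steap1 was at 1.23 FPKM in the control and 4.14 in the KO library, from 13 and 43 counts, and lactoferrin (Ltf) at 0.99 and 3.02. Slc39a14, a zinc carrier that also takes up iron not bound to transferrin, was the most abundant, at 68.19 and 119.4 FPKM (ratio 1.75, 1.67 to 1.83). Cubn, of the cubilin receptor complex, was the lowest, at 9.87 and 5.1. The count past 2-fold was 1 after scaling by the median ratio or the upper quartile and 0 with a pseudocount of 5 FPKM.

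Of 13 measured regulators of systemic and cellular iron, 0 were past 2-fold, 10 were above 0 and the median was 0.13. Over all measured genes 62.5% were above 0 and the median was 0.08. Ncoa4, the receptor that delivers ferritin to lysosomes so that its iron is released, was the most abundant and had the highest log2 ratio, at 226.35 FPKM in the control and 400.9 in the KO library (1.77, 1.72 to 1.82). It was thus higher beside both ferritin chains. Bmp6, which induces hepcidin in the liver, was at 0.94 and 2.42 FPKM, and Fam132b (erythroferrone, which represses hepcidin) at 2.19 and 4.46, both with a CPM ratio past 2-fold (2.57, 1.59 to 4.26, and 2.04, 1.46 to 2.87). Cp, ceruloplasmin, the plasma relative of hephaestin, was at 1.99 and 1.57. Hamp, the hepcidin gene, was not measured in the intestine, with 1 count in the control and 2 in the KO library.

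For heme iron, 1 of 12 measured genes, Hmox1, was at least 2-fold higher, and the median was 0.19. Slc46a1, a folate carrier first described as a heme carrier, was at 326.3 FPKM in the control and 372.7 in the KO library. Blvrb, a biliverdin reductase, was at 25.4 and 38.73, whereas Blvra, the other biliverdin reductase, was at 11.24 and 6.85. Of 25 measured genes of mitochondrial iron and iron-sulfur assembly, 0 were past 2-fold, 9 were above 0 and 16 below, and the median was -0.03. Slc25a37, the mitochondrial iron importer mitoferrin 1, had the lowest log2 ratio of that list, at 17.49 and 12.79 FPKM (ratio 0.731, 0.648 to 0.825), and Hspa9, a mitochondrial chaperone, was at 98.6 and 128.4.

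Carriers of other metals had a median of 0.03, or -0.07 after scaling by the median ratio, with 1 of 25 at least 2-fold higher and 0 lower. The exception was metallothionein Mt1, a buffer of zinc and copper, at 128.5 FPKM in the control and 455.95 in the KO library (ratio 3.55, 3.25 to 3.88), with Mt2 at 19.92 and 39.95. The copper importer Slc31a1 (85.04 and 66.99) and the basolateral zinc carrier Slc39a5 (105.9 and 82.51) had the lowest log2 ratios.

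**Figure D5:**
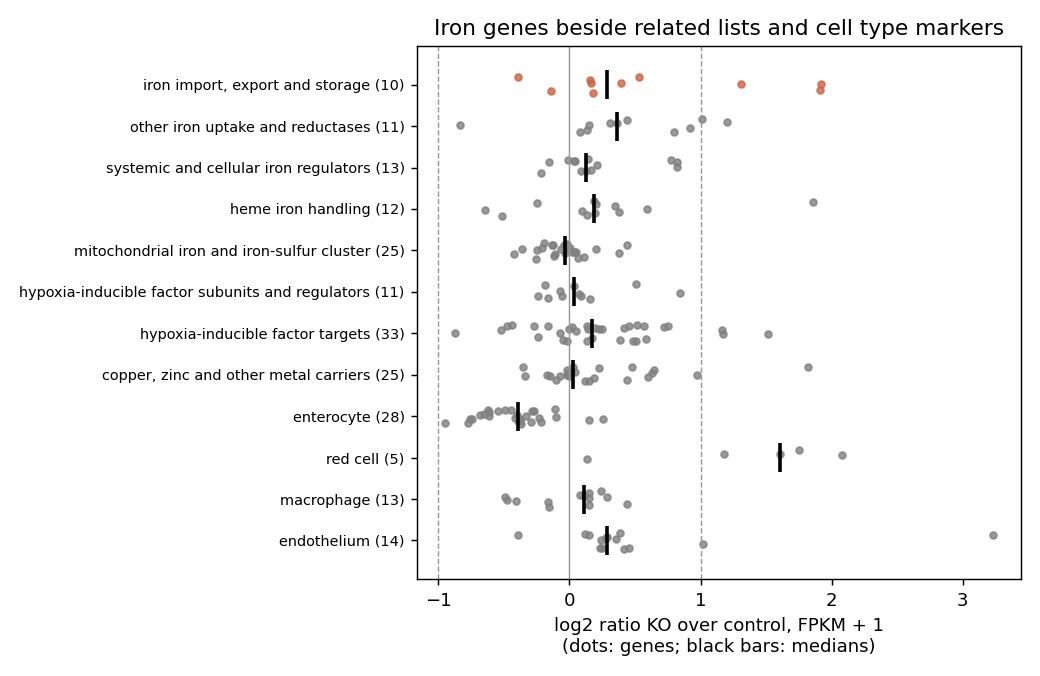
log2 ratio of KO over control (1 FPKM added to both) for every measured gene (dots) of the iron genes, related lists and cell type markers, with the median of each list (black bars) and the number of measured genes in parentheses. The iron genes have a median of 0.29 and 3 genes beyond 2-fold (dashed), the enterocyte markers lie mostly below 0 and the red cell markers mostly above.

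Markers of the cells and regions that express these genes did not move with them in 1 direction. Of the 28 enterocyte markers 26 were below 0, with 0 past 2-fold and a median of -0.39. The highest was Alpi, alkaline phosphatase (1769 FPKM in the control and 2110 in the KO library), and the lowest was Ace, a brush border peptidase (355.04 and 183.3). The 3 iron genes of the enterocyte were thus higher in the library with the lower enterocyte marker sum. Of 19 measured markers of proximal intestine, where iron is absorbed, 2 were at least 2-fold higher and 1 lower, with a median of -0.19. The 2 higher were Muc6, the mucin of stomach and Brunner glands, at 0.6 and 6.45 FPKM, and Trpv6, a calcium channel, at 3.1 and 7.57. The lower was Bco1, the beta-carotene oxygenase, at 7.14 and 1.11 FPKM. Pdx1, a duodenal transcription factor, was at 29.12 and 54.72, whereas Gip, Lct and Fabp1 were at 80.87 and 44.45, 271.2 and 161.3, and 4870 and 3179. Of 7 measured Brunner gland markers, Muc6 among them, 4 were at least 2-fold higher, 5 above 0 and 2 below, with a median of 1.39. That list summed to 2494.6 FPKM in the control and 6018.6 in the KO library, of which Reg3b made up 2088.1 and 5468.6. Tff2, also on the stomach list, was at 0.83 and 27.58 FPKM, whereas Lyz2 was at 107.7 and 76.97. Of 13 measured distal markers 0 were at least 2-fold higher and 3 lower, among them Amn, the partner of cubilin (51.75 and 20.06). Which stretch of intestine was taken is not given in the sources used here, and a difference in it between the pools and an effect of the genotype cannot be told apart.

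Red cell transcripts were also higher. Among 12 listed genes with a row in the files, 5 were measured and 4 were at least 2-fold higher, all of them globin genes, with Hbb-bs at 26.81 FPKM in the control and 116.6 in the KO library. The summed level of the list was 68.81 and 242.8 FPKM. Ermap, the other measured gene, was at 0.87 FPKM in the control and 1.05 in the KO library. The remaining genes of the list, markers of nucleated red cell precursors among them, were below 1 FPKM in both libraries. Among these Klf1 alone was lower in the KO library. Epb42 was at 0.4 FPKM in the control and 0.46 in the KO library, and Tspan33 at 0.51 and 0.97. Slc4a1 and Gata1 were at 0 in the control library and at 0.07 and 0.06 FPKM in the KO library, and Alas2 was at 0.59 and 0.72. Klf1 was at 0.82 FPKM in the control and 0.15 in the KO library (11 and 2 counts), and Rhag at 0.15 in both. The part of blood in the iron gene values was not tested.

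The genes outside the 10 whose levels were nearest to those of the 3 higher genes were found by the distance in log2(FPKM + 1) over 2 libraries, which is a small basis for likeness. For Slc11a2 they were S100a6 (72.25 FPKM in the control and 178.3 in the KO library), Krt18 (96.61 and 180.4) and Sprr2a2 (110.1 and 420.8). For Cybrd1 they were Krt7 (23.97 and 69.23), Hbb-bs and Hba-a1 (18.76 and 65.61), and for Slc40a1 S100a11 (120.9 and 204.7), Atp6v0c (122.6 and 204.6) and Krt18. The distance was smallest for Krt7, at 0.367, and largest for Sprr2a2, at 0.833.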

How the data were processed

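Intestinal RNA was sequenced in 2 libraries, 1 per group. Per the labels' protocols, reads were mapped to mm10 with BWA or Bowtie and genes were quantified with RSEM; the submitters' processing notes list BWA, Bowtie2 and RSEM, and versions are not given in the sources used here. Per the file headers, the authors deposited expected counts, which RSEM estimates, with FPKM and a length for each gene. The deposited FPKM of the series table and the sample files were identical. No deposited column was left unassigned.

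From these files, log2 ratios of FPKM with a pseudocount of 1, CPM ratios with 95% Clopper-Pearson intervals of rounded expected counts, and list counts and medians were computed (Python 3.11.15, SciPy 1.17.1). With 1 library per group no test was run. Intervals were tested on simulated data. The genes and lists were chosen with earlier results of these data known. Genes named are the 10 members, Setd2, Apc, up to the 3 highest, the 3 lowest and the most abundant of each list, and the 3 nearest genes; some of those that the rule allows are not reported here. Summed levels are over all genes of a list with a row in the files. Sums without Zg16, Sox17, or Lyz2 and Mertk were added after the values were seen. Cd68, C1qc and Mertk follow this rule, and Spic, Slc4a1, Gata1, Alas2, Klf1, Rhag, Epb42, Tspan33 and Hamp were named after their values were seen. For 26 genes a date stood in place of the symbol, which was restored. Reads that fit several genes are divided by RSEM, and whether counting used strand is not given in the sources used here.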

Additional observations from a re-analysis of the deposited data

How the results depend on the processing

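The number of iron genes at least 2-fold higher (3) and lower (0) was the same under the 11 alternatives run: other pseudocounts, TPM, median-ratio and upper-quartile scaling, CPM with and without pancreas, stomach and red cell genes in the totals, other filters, and a fold of 1.5. The median of the 10 log2 ratios ranged from 0.19 to 0.30. Over these alternatives the log2 ratio of Slc11a2 was 1.81 to 1.97, Cybrd1 1.76 to 1.97, Slc40a1 1.20 to 1.32, Heph -0.24 to -0.13 and Aco1 -0.49 to -0.37, and the sign of each of the 10 was kept. With CPM ratios and no pseudocount, 5.72% of measured genes were at least 2-fold higher and 2.24% lower, against 2.78% and 1.28%. A fold of 1.5 gave 8.01% and 3.46%, and a pseudocount of 5 gave 0.8% and 0.377%. No paired analysis was possible because each group has 1 library. Each iron gene had over 1000 counts in at least 1 library. Differences between mice within a group could not be measured with 1 library each.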
